A study of Mus musculus with 15 samples.

Results

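The enzymes that write, maintain and remove cytosine methylation in DNA were followed across 15 libraries of mouse embryonic fibroblasts. The 7 genes are Dnmt1, Uhrf1, Dnmt3a, Dnmt3b, Tet1, Tet2 and Tet3, and they were found by symbol among 47222 gene symbols. Together they occupied 16 of 65522 transcription units. A unit is a stretch of assembled transcripts with a single deposited expression value. The unit with the highest mean over the libraries stands for each gene.

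DNA methylation in mammals falls mainly on cytosines of CpG pairs. Dnmt3a and Dnmt3b set it on unmethylated DNA, and Dnmt1 copies it to the new strand behind the replication fork. Uhrf1 binds the half-methylated sites left by replication and brings Dnmt1 to them, so both are working parts of S phase chromatin. The TET enzymes oxidise methylcytosine in steps that need alpha-ketoglutarate, after which the mark is lost by dilution or by base excision. Dnmt3b and Tet1 are best known from the early embryo and from pluripotent and germ cells, Dnmt1 and Uhrf1 from dividing cells of all kinds.

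Poly(A)-selected RNA of female C57BL/6 cells was sequenced. There were 3 primary WT populations (CIZ1 +/+, embryos E14.4, E13.1 and E13.8), collected before passage 5, and 3 culture-adapted lines that arose from them by continued passage. The same was done for CIZ1 null cells (CIZ1 -/-, E14.2, E13.15 and E13.17), in which a gene trap interrupts the gene for CIZ1, a nuclear matrix protein linked to DNA replication and to the inactive X chromosome. Primary E13.17 was an untreated population with a GFP-CIZ1 transgene that doxycycline switches on. A further untreated transgenic population, S13, and a pair given 5 to 10 μg/ml doxycycline, S14 and S15, are also CIZ1 -/- primary cells. Below, primary WT and primary null cells mean the sets of 3, and S13, S14 and S15 are named where they enter. Each primary population came from 1 embryo and each adapted line from 1 population. The label of the adapted E13.17 line names no transgene, but the study's list of cell lines gives it the same transgene as its primary population. Libraries within a group are separate populations, but each adapted line was measured once.

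Values are FPKM, fragments scaled to transcript length and to depth, which can be compared between genes because they are per length. Relative to primary WT E14.4 the depth of the libraries lay between 0.483 and 1.63, and correlations between replicates were 0.937 to 0.974 in primary groups and 0.829 to 0.888 in adapted groups. Ciz1 stood at 18.7 to 25.0 FPKM in the WT libraries, at 0.0546 to 0.724 in the untreated null libraries, and at 296 and 191 after doxycycline, in keeping with the labels. The 10 fibroblast markers summed to 10020 to 10950 FPKM in the 6 primary libraries of the sets of 3, to 9635, 7937 and 6341 in S13, S14 and S15, and to 3103 to 6508 in adapted cells. Pluripotent and germ cell markers summed to at most 0.595 FPKM in any library, with Pou5f1, Zfp42 and Dppa5a at 0 throughout. Markers of other types summed to at most 22.9 FPKM in primary and 7.52 in adapted cells for neural genes, 15.9 and 4.19 for macrophage and leukocyte, 13.6 and 0.687 for skeletal muscle, and 11.6 and 0.413 for epithelial genes. Endothelial markers reached 3.76 FPKM. Their part in the results was not tested. In bulk RNA, fewer cells expressing a gene and less RNA per cell cannot be told apart.

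The maintenance pair was the most abundant. Over the 15 libraries Dnmt1 averaged 25.2 FPKM, Uhrf1 16.3, Dnmt3a 4.92, Tet3 2.92, Tet2 1.77, Tet1 0.364 and Dnmt3b 0.322. Dnmt1 lay above Uhrf1 in 15 of 15 libraries and Uhrf1 above Dnmt3a in 14, the exception being adapted null E13.17. Dnmt3a was above Tet3 in 13 libraries, Tet3 above Tet2 in 12 and Tet2 above Tet1 in 15. Tet1 and Dnmt3b did not differ beyond their spread, with Tet1 above in 8 of 15. Dnmt3b, the de novo enzyme of the early embryo, and Tet1 fell under the mean of 1 FPKM set for testing, so 5 members were tested in each comparison. A further 9 units lie at the same loci on the opposite strand. The kit keeps no strand, so reads of the sense and antisense units cannot be told apart. Summing the units of each gene left Dnmt1 above Uhrf1 in 13 of 15 libraries.

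**Figure D1:**
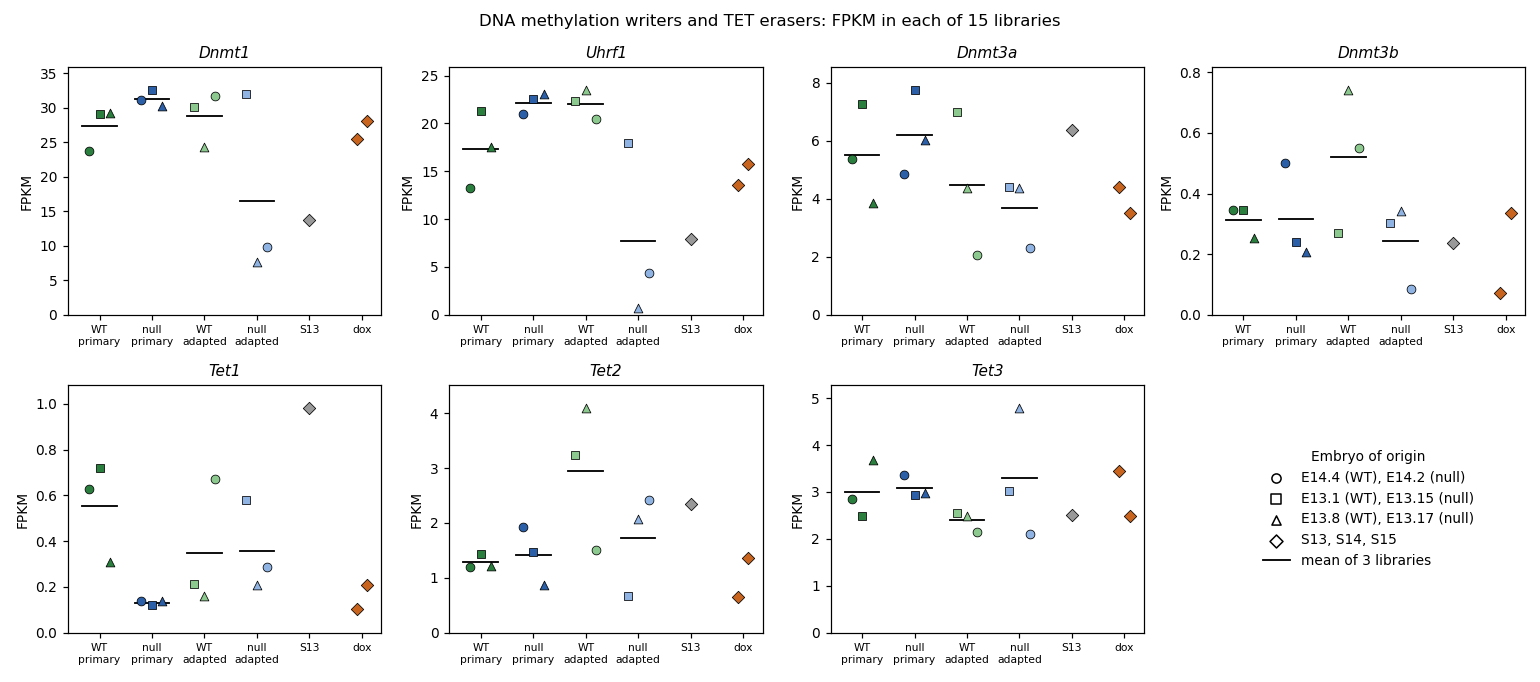
FPKM (y axes, linear from 0) of each of the 7 members in each of 15 libraries, by group on the x axes; symbols mark the embryo of origin and bars the mean of 3 libraries. Dnmt1 and Uhrf1 are low in adapted null E13.17 and E14.2 and in S13, at 7.63 to 13.7 and 0.703 to 7.97 FPKM, while adapted null E13.15 is at 31.9 and 18.0.

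Dnmt1 (chr9:20907209-20959888, minus strand, GRCm38) was measured at 23.8, 29.1 and 29.2 FPKM in primary WT cells (E14.4, E13.1, E13.8), and at 31.7, 30.1 and 24.3 in the adapted lines of the same embryos. In primary CIZ1 null cells it stood at 31.1, 32.6 and 30.3 (E14.2, E13.15, E13.17), and in their adapted lines at 9.87, 31.9 and 7.63. The WT groups overlapped. The adapted null group split, with E13.15 at the level of its primary population and the other lines far below every primary library of the study's sets of 3.

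Uhrf1 (chr17:56303321-56323486, plus strand) followed the same lines. It was measured at 13.2, 21.3 and 17.5 FPKM in primary WT cells (E14.4, E13.1, E13.8) and at 20.4, 22.3 and 23.5 in adapted WT cells. In primary null cells it was at 21.0, 22.5 and 23.1 (E14.2, E13.15, E13.17) and in adapted null cells at 4.36, 18.0 and 0.703. All 3 adapted null lines lay below the 3 primary null populations and below all adapted WT lines, as groups did without overlap in either direction for 37.06% and 8.285% of units. S13, at 7.97, was below adapted E13.15. Adapted E13.17 was the lowest of the 15 libraries. The ratio of Uhrf1 to Dnmt1 was 0.0922 in that line and 0.442 to 0.965 in the other libraries.

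In culture adaptation of WT cells Dnmt1 went from 27.3 ± 3.08 to 28.7 ± 3.88 FPKM (SD, n = 3 each). The log2(FPKM + 1) difference was 0.07 (SE 0.18), with a 95% interval of -0.37 to 0.50 and an adjusted p of 0.830 from limma with Benjamini-Hochberg adjustment over all units. Uhrf1 went from 17.3 ± 4.03 to 22.1 ± 1.55 FPKM, a log2 difference of 0.35 (SE 0.21, adjusted p = 0.297 by limma). At a threshold of 0.05 on adjusted p, 0 of the 5 members tested were called in WT adaptation, against 9.55% of all 19919 units tested. Without adjustment, 1 member (Tet2) had a p under 0.05, as did 30.6% of all units. With a term for the embryo (a block), 499 units and 0 members were called.

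In adaptation of CIZ1 null cells Dnmt1 went from 31.3 ± 1.16 to 16.5 ± 13.4 FPKM (SD, n = 3 each), a log2 difference of -1.15 (SE 0.49, 95% interval -2.33 to 0.03, adjusted p = 0.179 by limma). Uhrf1 went from 22.2 ± 1.09 to 7.685 ± 9.11 FPKM, a log2 difference of -2.05 (SE 0.80, 95% interval -3.98 to -0.13, adjusted p = 0.152 by limma). Thus 0 of 5 members were called, against 4.86% of 20044 units. Uhrf1 was the only member with an unadjusted p under 0.05, which 29.3% of all units had. With the embryo as a block, 10 units and 0 members were called. The spread among the adapted lines decided this result. Without adapted null E13.15, Dnmt1 (log2 difference -1.74, adjusted p = 0.0133 by limma) and Uhrf1 (-2.94, adjusted p = 0.0226) were both called, as were 2999 units in all.

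The difference between genotypes in their adaptation, tested as an interaction over 12 libraries, was -1.22 for Dnmt1 (SE 0.56, adjusted p = 0.996 by limma) and -2.41 for Uhrf1 (SE 0.90, adjusted p = 0.996), on the log2 scale. No unit was called in this comparison (0% of 20046), while 928 units and 1 member, Uhrf1, had an unadjusted p under 0.05 by limma. Without adapted null E13.15 the interaction was -1.80 for Dnmt1 (adjusted p = 0.0126) and -3.29 for Uhrf1 (adjusted p = 0.0202), with 234 units called. WT and null adaptation therefore cannot be said to differ for these genes over all 3 lines of each genotype.

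Loss of CIZ1 was also compared within each state, with libraries shared with the comparisons above. In primary cells Dnmt1 was 0.19 higher in null than in WT populations on the log2 scale (SE 0.12, 95% interval -0.10 to 0.49, adjusted p = 0.822 by limma), although all 3 null values lay above all 3 WT values, as groups did not overlap for 11.85% of units. Uhrf1 was 0.36 higher (SE 0.18, adjusted p = 0.815 by limma), with overlapping groups. Of the 5 members 0 were called, against 0.00511% of 19566 units, and 0 had an unadjusted p under 0.05 against 1225 units. With S13 added to the null group the Dnmt1 difference was -0.09, because S13 held only 13.7 FPKM. In adapted cells the null lines differed from WT by -1.02 for Dnmt1 (SE 0.51, adjusted p = 0.998 by limma) and by -2.05 for Uhrf1 (SE 0.81, adjusted p = 0.998). There 0 of 5 members were called, against 0.00501% of 19976 units, and Uhrf1 alone had an unadjusted p under 0.05, as did 804 units.

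**Figure D2:**
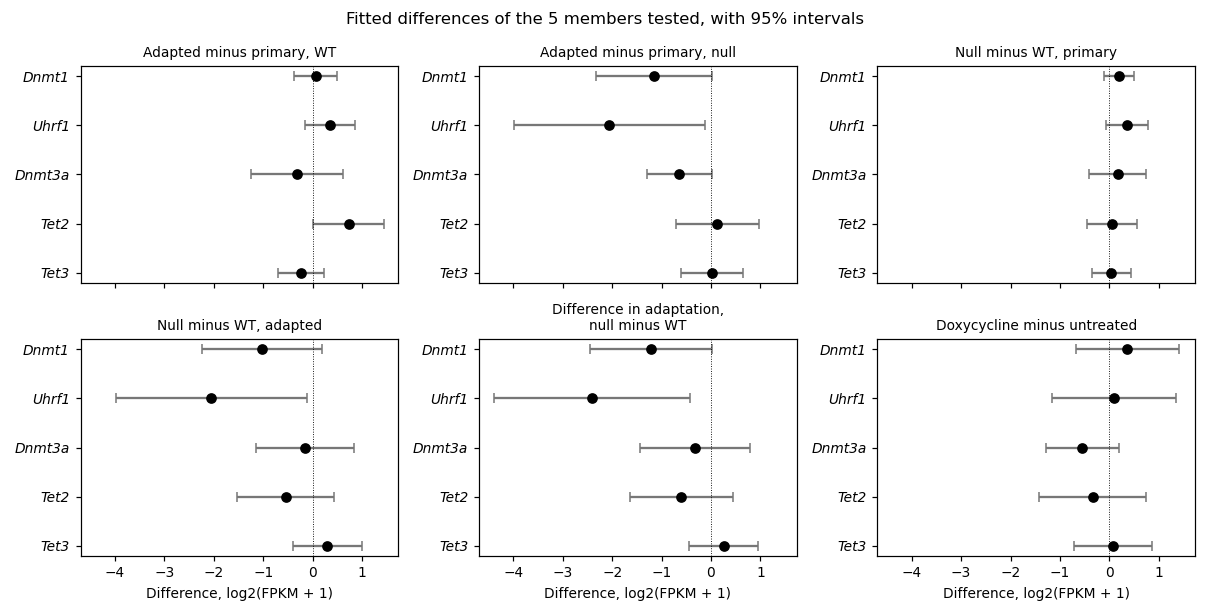
Differences on the log2(FPKM + 1) scale (x axes) for the 5 members tested (y axes), 1 panel per comparison; points are limma estimates and bars their unadjusted 95% intervals. The intervals of Dnmt1 and Uhrf1 are wide wherever the adapted null lines enter, and Tet2 is at 0.73 in WT adaptation.

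The libraries low in Dnmt1 and Uhrf1 were also low in the summed level of genes of S phase and proliferation. A list of 15 such genes, among them Pcna, Mcm2, Ccna2 and Cdk1, summed to 533 to 725 FPKM in primary WT, 638 to 786 in primary null and 987 to 1178 in adapted WT cells. In adapted null cells the sum was 1155 for E13.15 but 186.5 for E13.17 and 278.6 for E14.2, and it was 348.7 in S13. These are the same 3 libraries in which Dnmt1 was at 13.7 FPKM or less, and the order of the 3 was the same for Dnmt1, Uhrf1 and the list. Not every gene of the list was low there. In adapted null E14.2, Pcna (89.5 FPKM) and E2f1 (17.6) lay above the highest primary WT values, 86.3 and 14.1. Mcm7 in adapted null E13.17 (46.9 FPKM) lay within the primary WT values. Over the 15 libraries, which share embryos and groups, Pearson's r with the list's mean log2 level was 0.951 for Dnmt1 and 0.952 for Uhrf1, and 0.807 and 0.812 without the 2 libraries farthest from the gene's median. Dnmt1 and Uhrf1 had an r of 0.948 with each other (0.84 without 2). For Dnmt3a it was 0.141 (0.138 without 2), for Tet3 -0.4 (-0.225) and for Tet2 -0.176, which became -0.601 without the 2 libraries farthest from the Tet2 median. Those were adapted WT E13.8 and E13.1, which held the highest Tet2 (4.10 and 3.24 FPKM) along with high list sums (986.9 and 1028 FPKM). The value of -0.601 therefore leaves out the libraries that most oppose it. The r without 2 libraries for Dnmt1 and Uhrf1 still includes S13, the third low library. Spearman's rank correlation with the list was lower, at 0.746 for Dnmt1 and 0.693 for Uhrf1, and 0.664 between Dnmt1 and Uhrf1. Between Tet2 and the list it was -0.032 over all 15 libraries. In WT adaptation the median log2 difference of the list was 0.72, while that of Dnmt1 was 0.07. Whether the share of cycling cells set the levels of Dnmt1 and Uhrf1 was not tested.

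**Figure D3:**
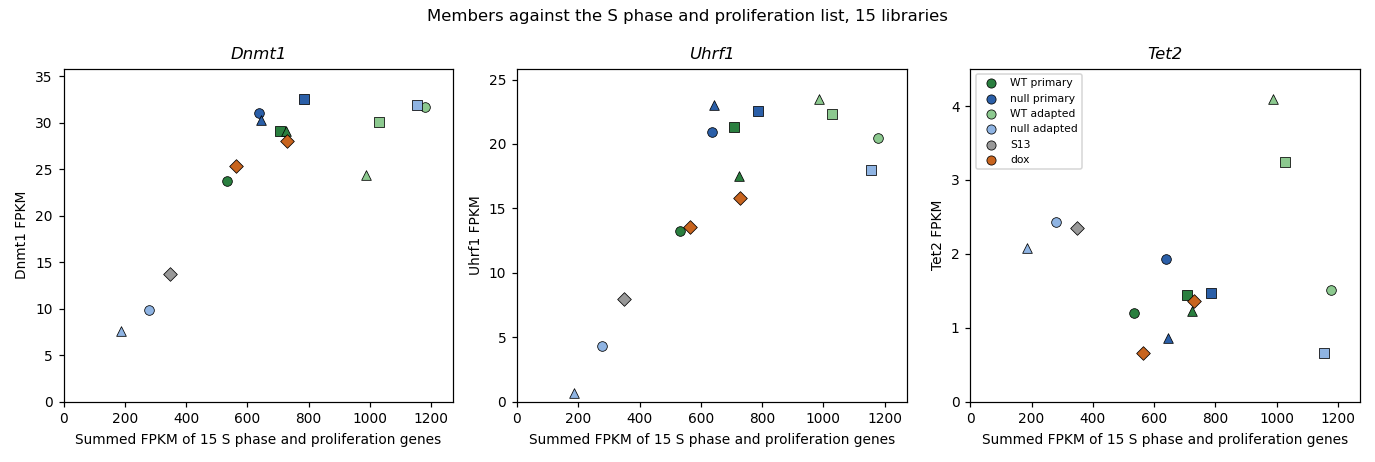
FPKM of Dnmt1, Uhrf1 and Tet2 (y axes) against the summed FPKM of 15 S phase and proliferation genes (x axes) in 15 libraries, coloured by group with embryo symbols as in the plot of all members. The 3 libraries with a sum of 186.5 to 348.7 hold the 3 lowest values of both Dnmt1 and Uhrf1, and Tet2 is at 2.08 to 2.43 FPKM there.

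The list was also described in each comparison. In WT adaptation 2 of 15 genes were called and both rose, against 9.55% of all units called, and 8 of 15 had an unadjusted p under 0.05 by limma, against 30.6% of all units. Cdk1, the mitotic kinase, went from 119 ± 23.3 to 282.3 ± 19.0 FPKM (log2 difference 1.26, adjusted p = 0.0193 by limma), and Pcna, the replication clamp, from 80.6 ± 7.27 to 156.6 ± 41.7 (0.92, adjusted p = 0.0487). Pcna shares its locus with Cds2. The median of the list was 0.72 against -0.05 over all units. The calls were fragile, since Cdk1 was lost without any single primary WT library (adjusted p 0.0748 to 0.0834 by limma) and in a fit of all 4 groups (0.238), and Pcna without 5 of the 6 libraries (0.0553 to 0.174) and with the embryo as a block (0.0981). In null adaptation 0 of 15 were called and 0 had an unadjusted p under 0.05 by limma, against 4.86% and 29.3% of all units. The median was -1.0 against -0.04 over all units. Ccnb1 (log2 difference -2.05, adjusted p = 0.188) and Ccna2 (-1.86, adjusted p = 0.225), cyclins of mitosis and S phase, had the smallest p. The same cyclins led the other comparisons of adapted cells, at -2.77 and -2.53 between genotypes (adjusted p = 0.998 by limma) and at -2.88 each in the interaction (adjusted p = 0.996). Of the list, 0 were called there and 3 and 4 genes had an unadjusted p under 0.05 by limma, against 4.02% and 4.63% of all units. The medians were -1.68 and -1.83 against 0.03 and 0.04 over all units. In primary cells, loss of CIZ1 gave 0 calls and a median of 0.17 against 0 over all units. It gave 0 genes with an unadjusted p under 0.05 by limma, against 6.26% of all units. Tyms, which makes thymidylate, led with 0.41 and Mcm2, a subunit of the replicative helicase, with 0.23 (adjusted p = 0.815 each).

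Genes whose levels were most like those of the members were taken by Pearson's r of log2(FPKM + 1) over the 15 libraries. For Dnmt1 they were Asf1b (0.981), Tk1 (0.978) and Cdc45 (0.978), a histone chaperone, thymidine kinase and a helicase subunit. For Uhrf1 they were Ube2c (0.986), Cks2 (0.979) and Birc5 (0.977), which are known for roles in mitosis. For Dnmt3a, Tet2 and Tet3 the likeness was weaker. Their nearest genes were RP23-179K11.8 (0.898), Mief2 (0.88) and Tead3 (0.838) for Dnmt3a, Rspry1 (0.885), Luc7l2 (0.883) and Ids (0.843) for Tet2, and Plekhf1 (0.859), Hsf1 (0.827) and Mknk1 (0.821) for Tet3.

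Because the levels of Dnmt1 and Uhrf1 varied together over the libraries, their promoters were searched for letters known from genes of the cell cycle, in RefSeq windows of 300 bases (250 before to 50 after each annotated start, GRCm38.p6). The 7 members have 12 such windows. Letters of the E2F family (TTTCCCGC, TTTCGCGC, TTTGCCGC or TTTGGCGC, on either strand) were found in 2.26% of all 32851 windows. Each of these holds a CpG pair, and the share was not matched for the CpG content of the windows. Among the members they occurred in the third of the Dnmt1 windows, at 2 places, and in the second of the Uhrf1 windows, at 1 place, and not in the windows of the other 5 genes. The stretches of 30 bases below hold these matches, shown 5′ to 3′ on the strand of the gene with the matched letters in capitals, since these letters were the rarest of those searched.
Dnmt1, chr9:20952824-20952853, minus strand, 219 bases before that start: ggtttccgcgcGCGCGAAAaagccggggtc
Dnmt1, chr9:20952574-20952603, minus strand, 33 bases after that start: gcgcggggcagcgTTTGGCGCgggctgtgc
Uhrf1, chr17:56304117-56304146, plus strand, 185 bases before that start: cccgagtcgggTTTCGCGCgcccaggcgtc

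The Dnmt1 stretches overlap annotated UTR sequence of Dnmt1 transcripts, and the Uhrf1 stretch lies in an intron of the annotated gene. Both windows hold 33 CpG pairs, more than 91.4% of all windows, where the median is 7. The other windows of Dnmt1 hold 2 and 12 and that of Uhrf1 12. Among the other members the number was 46, 47 and 18 in the windows of Dnmt3a, 30 in Dnmt3b, 17 in Tet1, 22 in Tet3 and 57 in Tet2, which exceeds 99.8% of all windows. No methylation was measured in these cells, and the letters are a description of sequence only. The same Dnmt1 and Uhrf1 windows also hold CCAAT, known from NF-Y, at 3 and 2 places, and GGGCGG, known from SP1, at 2 and 3 places. On either strand these are found in 37.4% and 35.7% of all windows, and neither window holds TTTGAA or TTCGAA, letters of the CHR element that 19.2% of windows have.

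Dnmt3a (chr12:3806007-3914443, plus strand), the main de novo enzyme of somatic cells, was present at 5.36, 7.25 and 3.85 FPKM in primary WT cells (E14.4, E13.1, E13.8) and at 2.04, 6.99 and 4.37 in their adapted lines. In null cells it was at 4.85, 7.74 and 6.03 (E14.2, E13.15, E13.17) before and at 2.29, 4.39 and 4.37 after adaptation. The WT groups overlapped, whereas all 3 adapted null lines lay below the 3 primary null populations. The log2 difference in null adaptation was -0.64 (SE 0.27, 95% interval -1.30 to 0.02, adjusted p = 0.180 by limma), and groups of 37.06% of all units did not overlap in this comparison. In WT adaptation it was -0.32 (SE 0.39, adjusted p = 0.616 by limma), and without adapted WT E14.4 it was 0.05. Loss of CIZ1 gave 0.17 in primary and -0.15 in adapted cells, with adjusted p of 0.900 and 0.999 by limma. The line with the lowest Dnmt1, adapted null E13.17, did not have the lowest Dnmt3a, which was close to that of adapted null E13.15. Its ratio of Dnmt3a to Dnmt1 was 0.573 against 0.132 to 0.249 in the 6 primary libraries of the study's sets. The ratio was also high, at 0.463, in S13, a primary null library that was low in Dnmt1 too.

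Dnmt3b (chr2:153649450-153687730, plus strand) was between 0.0719 and 0.742 FPKM in all libraries. Its highest values were 0.742 and 0.551 in adapted WT E13.8 and E14.4, and its groups overlapped in each comparison. With no filter on FPKM its log2 differences were 0.20 in WT adaptation and -0.08 in null adaptation (adjusted p = 0.477 and 0.733 by limma). Neither difference was called, and whether a difference can be found at this level was not tested.

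Of the TET genes, Tet2 and Tet3 carried most of the signal. Tet2 (chr3:133463679-133545139, minus strand), an oxidase without a CXXC domain of its own, was measured at 1.19, 1.44 and 1.22 FPKM in primary WT cells (E14.4, E13.1, E13.8) and at 1.51, 3.24 and 4.10 in the adapted lines. All 3 adapted WT lines lay above the primary WT populations, which was so in either direction for 38.74% of units. The means were 1.29 ± 0.14 and 2.95 ± 1.32 FPKM (SD, n = 3 each), and the log2 difference was 0.73 (SE 0.30, 95% interval 0.01 to 1.44, adjusted p = 0.158 by limma). The call turned on a single line. Without adapted WT E14.4, the lowest of the adapted lines, the difference was 1.03 (adjusted p = 0.0330 by limma), with 2972 units called.

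In null cells Tet2 was measured at 1.93, 1.47 and 0.863 FPKM before (E14.2, E13.15, E13.17) and at 2.43, 0.661 and 2.08 after adaptation. The groups overlapped and the lines moved in both directions, with a log2 difference of 0.13 (SE 0.35, adjusted p = 0.833 by limma). Only E13.15 went down, the line in which Dnmt1 was at 32.6 before and 31.9 FPKM after, and Uhrf1 at 22.5 and 18.0. Without E13.17 in the primary group the difference was -0.05. The interaction between genotype and adaptation was -0.60 (SE 0.47, 95% interval -1.65 to 0.44, adjusted p = 0.996 by limma), so that the genotypes were not shown to differ. Loss of CIZ1 gave 0.06 in primary and -0.54 in adapted cells (adjusted p = 0.963 and 0.998 by limma).

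Tet3 (chr6:83362373-83459084, minus strand), the TET enzyme of the oocyte and of many differentiated tissues, had the narrowest range of the 7 genes, with a ratio of highest to lowest level of 2.28 against 33.4 for Uhrf1. It lay between 2.10 and 4.79 FPKM over all libraries, the highest and lowest values being adapted null E13.17 and E14.2. Primary and adapted WT cells held 3.01 ± 0.61 and 2.40 ± 0.22 FPKM (SD, n = 3 each) and primary and adapted null cells 3.09 ± 0.23 and 3.30 ± 1.37. The log2 differences were -0.23 (95% interval -0.70 to 0.24, adjusted p = 0.460 by limma) in WT and 0.03 (-0.61 to 0.66, adjusted p = 0.957) in null adaptation. Loss of CIZ1 gave 0.04 in primary and 0.30 in adapted cells (adjusted p = 0.968 and 0.998 by limma).

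Tet1 (chr10:62804570-62908996, minus strand), known from pluripotent and germ cells, was low everywhere but not evenly. It was at 0.626, 0.720 and 0.311 FPKM in primary WT cells (E14.4, E13.1, E13.8) and at 0.136, 0.119 and 0.140 in primary null cells (E14.2, E13.15, E13.17). These groups did not overlap, as was so for 11.85% of the units tested in this comparison. With no filter on FPKM the log2 difference was -0.45 (SE 0.11, adjusted p = 0.800 by limma). Adapted null lines were all above the 3 primary ones, at 0.285, 0.578 and 0.209 FPKM, as groups did not overlap for 37.06% of units, with a log2 difference of 0.25 (adjusted p = 0.271 by limma). Adapted WT lines spread from 0.162 to 0.670 FPKM, and the highest value of all, 0.982, was in S13, a primary null library. When all units at the locus were summed, primary WT (0.561 to 0.837) and primary null cells (0.303 to 0.806) overlapped.

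Induction of GFP-CIZ1 was examined by doxycycline in transgenic null cells, with untreated E13.17 and S13 against S14 and S15. It did not restore the WT level, since Ciz1 was at 296 and 191 FPKM in S14 and S15, against 18.7 to 25.0 in WT libraries. Treated and untreated libraries come from the same pair of embryos, E13.17 and a further one. The labels do not say which treated library is which, so the fit had no term for the embryo. Dnmt1 was at 30.3 and 13.7 FPKM without and at 25.4 and 28.0 with doxycycline, and Uhrf1 at 23.1 and 7.97 without and 13.5 and 15.8 with. For both genes the treated values lay between the untreated ones. The log2 differences were 0.37 for Dnmt1 and 0.09 for Uhrf1 (adjusted p = 1 by limma), and both were negative, at -0.18 and -0.62, without S13. Dnmt3a was at 6.03 and 6.35 FPKM without and 4.41 and 3.49 with doxycycline, and these groups did not overlap, as for 19.74% of units (log2 difference -0.54, SE 0.30, adjusted p = 1 by limma). Tet2 was at 0.863 and 2.35 without and at 0.658 and 1.36 FPKM with, and Tet3 at 2.98 and 2.52 without and at 3.44 and 2.49 with. Of the 5 members 0 were called, against 0.0101% of 19768 units, and 0 had an unadjusted p under 0.05 by limma, against 347 units. The S phase list summed to 644 and 348.7 FPKM without and to 563 and 730 with doxycycline. Of its genes 0 were called, with a median log2 difference of 0.34, led by Rrm2 (0.96) and Cdk1 (0.62).

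Partners and readers of DNA methylation were described from a list of 15 genes. In WT adaptation 14 were tested and 0 called, against 9.55% of all units. Of the 14, 5 had an unadjusted p under 0.05 by limma, as did 30.6% of all units. The median log2 difference of the 14 was 0.32 against -0.05 over all units. Mbd4, a glycosylase that binds methylated CpG, went from 0.555 ± 0.30 to 2.92 ± 1.51 FPKM (log2 difference 1.28, adjusted p = 0.0632 by limma). Hells, a chromatin remodeller needed for methylation of repeats, went from 10.9 ± 4.25 to 22.4 ± 5.25 (1.01, adjusted p = 0.0833). In null adaptation 15 were tested and 0 called, against 4.86% of all units, with a median of 0.20 against -0.04. Of the 15, 3 had an unadjusted p under 0.05 by limma, as did 29.3% of all units. Uhrf2, the relative of Uhrf1, was at 15.5, 17.0 and 18.1 FPKM in primary null cells (E14.2, E13.15, E13.17) and at 26.2, 31.0 and 30.4 in their adapted lines. In WT cells it was at 11.1, 18.7 and 16.4 before (E14.4, E13.1, E13.8) and at 19.9, 34.0 and 42.4 after. Every adapted line lay above every primary population of its genotype, also the null lines in which Uhrf1 was low. Groups of 38.74% of units in WT and 37.06% in null adaptation did not overlap. In null adaptation the log2 difference was 0.76 (SE 0.17, adjusted p = 0.0538 by limma), and for Zbtb33, the methyl-CpG reader Kaiso, 0.85 (SE 0.18, adjusted p = 0.0504). Neither passed the threshold. Mbd4 shares its locus with Efcab12 and Zbtb33 with Tmem255a.

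Loss of CIZ1 gave no call in this list either. In primary cells 13 were tested and 2 had an unadjusted p under 0.05 by limma, against 6.26% of all units. The median was -0.10 against 0. Trdmt1, a tRNA methyltransferase of the Dnmt family, was at 3.49 ± 1.58 FPKM in WT and 1.35 ± 0.23 in null cells (log2 difference -0.88, adjusted p = 0.689 by limma), and Cdca7, a partner of Hells, at 4.33 ± 1.34 and 6.79 ± 0.59 (0.58, adjusted p = 0.776). In adapted cells 14 were tested and 1 had an unadjusted p under 0.05 by limma, against 4.02% of all units. The median was -0.24 against 0.03. Trdmt1 was again lower in null lines, at 4.68 ± 1.07 against 1.98 ± 0.97 FPKM (-0.97, adjusted p = 0.998 by limma). Its groups did not overlap in either state, as for 11.85% of units in primary and 8.285% in adapted cells, but S13, at 3.14 FPKM, lay within the primary WT values. In adapted cells Cdca7l, related to Cdca7, differed by -1.12 (adjusted p = 0.998). In the interaction, 0 of 14 were called and 3 had an unadjusted p under 0.05 by limma, against 4.63% of all units. Zbtb33 (0.66) and Cdca7l (-1.58) led, with an adjusted p of 0.996 by limma for both genes. The median was -0.26 against 0.04. In induction 0 of 13 were called and 0 had an unadjusted p under 0.05 by limma, against 1.76% of all units. The smallest p were those of Zbtb33 (0.23) and Hells (0.23), and the list's median was 0 against -0.01.

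Among 15 partners of demethylation and base excision, 12 were tested in each comparison. In WT adaptation 1 was called, against 9.55% of all units. Gadd45g, a stress-induced gene tied to DNA repair, fell from 241.5 ± 111 to 53.8 ± 34.0 FPKM (log2 difference -2.24, SE 0.50, adjusted p = 0.0440 by limma). It was at 370, 183 and 171 FPKM in primary and 26.3, 43.1 and 91.8 in adapted WT cells (E14.4, E13.1, E13.8), with no overlap, as for 38.74% of units. The call was lost with the embryo as a block (adjusted p = 0.0921 by limma), with no filter (0.0797), with quantile normalization (0.0544) and without 5 of the 6 libraries (0.0533 to 0.152). In null adaptation 1 was called, against 4.86% of all units. Ogt, which adds O-GlcNAc to proteins and binds TET enzymes, rose from 13.9 ± 2.47 to 50.1 ± 16.0 FPKM (1.74, SE 0.29, adjusted p = 0.0342 by limma). It was at 16.7, 12.9 and 12.1 in primary and 57.3, 31.8 and 61.2 in adapted null cells (E14.2, E13.15, E13.17). In WT cells Ogt also stood higher after adaptation in every line, with a log2 difference of 1.44 that was not called. The Ogt call was lost with the embryo as a block (adjusted p = 0.0848 by limma), with no filter (0.0577), with either other set of primary null libraries (0.0625 and 0.126) and without 5 of the 6 libraries (0.0538 to 0.159). The medians were -0.07 and -0.04, against -0.05 and -0.04 over all units.

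**Figure D4:**
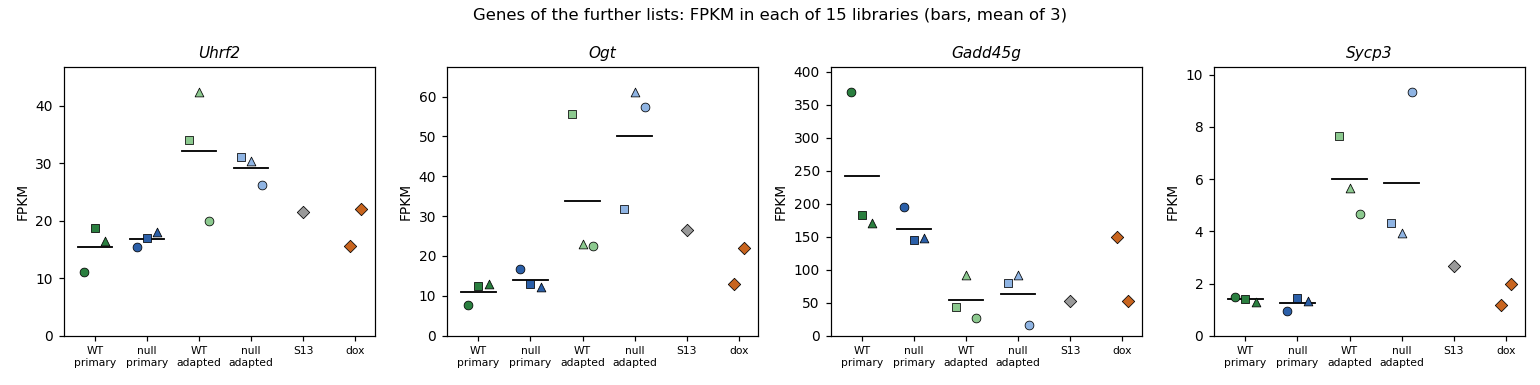
FPKM (y axes, linear from 0) of Uhrf2, Ogt, Gadd45g and Sycp3 in 15 libraries by group (x axes), with embryo symbols as in the plot of all members and bars at the mean of 3. All adapted lines of a genotype lie above its 3 primary populations for Uhrf2, Ogt and Sycp3 and below them for Gadd45g, where S13 and S15 are as low as adapted lines, at 52.5 and 53.2 FPKM.

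In the remaining comparisons 0 of these 12 genes were called, and 1 had an unadjusted p under 0.05 by limma in each. Of all units 6.26% and 4.02% had such a p for loss of CIZ1 in primary and adapted cells. The shares were 4.63% in the interaction and 1.76% in induction. Gadd45a, a relative of Gadd45g, led both comparisons of genotypes, with 12.6 ± 3.24 FPKM in WT and 22.5 ± 5.87 in null primary cells (log2 difference 0.79, adjusted p = 0.719 by limma) and 15.3 ± 8.94 and 63.9 ± 47.1 in adapted cells (1.82, adjusted p = 0.998). Next were Gadd45g in primary cells (-0.49, adjusted p = 0.822 by limma) and Smug1, a uracil glycosylase, in adapted cells (0.54, adjusted p = 0.998). The interaction was led by Smug1 (0.65) and Neil3 (-1.49), another glycosylase, and induction by Gadd45a (-0.90) and Tdg (-0.31), the glycosylase that removes oxidised methylcytosine, with adjusted p of 0.996 and 1 by limma. Medians were 0.03, -0.03, 0.03 and 0.01 in these comparisons, in that order.

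The genes of methyl donor and alpha-ketoglutarate metabolism showed no call. Of 15 genes 14 were tested, and by limma 1 had an unadjusted p under 0.05, in null adaptation, and 0 in the other comparisons. Of all units 29.3% had such a p in null adaptation and 1.76% to 30.6% in the other comparisons. Medians lay between -0.13 in null adaptation and 0.10 in induction. In WT adaptation Idh3a, of the citrate cycle, had a log2 difference of -0.48 (adjusted p = 0.238 by limma). In null adaptation D2hgdh, which turns hydroxyglutarate into alpha-ketoglutarate, had 0.57 (adjusted p = 0.167 by limma). Between genotypes in primary cells the smallest p were those of Ahcyl1 (-0.30) and of Ahcy (0.30), the latter a gene of methyl donor turnover. In adapted cells it was that of Shmt1 (-0.57), of the folate cycle. Ahcy (-0.76) and Idh2 (-0.75) led the interaction, and Shmt1 had 0.26 in induction.

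Genes of the germ line known to be silenced by promoter methylation in somatic cells were described as well, with 16 genes in the list. Methylation of their promoters was not measured, so their levels say nothing of it by themselves. Only Sycp3, a protein of the meiotic chromosome axis, reached a mean of 1 FPKM. It was at 1.47, 1.41 and 1.28 FPKM in primary WT cells (E14.4, E13.1, E13.8) and at 4.66, 7.67 and 5.66 in adapted ones, a rise of 1.53 on the log2 scale (SE 0.21, adjusted p = 0.0160 by limma). In null cells it was at 0.955, 1.46 and 1.31 (E14.2, E13.15, E13.17) before and at 9.35, 4.33 and 3.93 after adaptation, a log2 difference of 1.54 (SE 0.32, adjusted p = 0.0504 by limma). Every adapted line lay above every primary library, as groups did not overlap for 38.74% of units in WT and 37.06% in null adaptation, and the interaction with genotype was 0.01 (95% interval -0.86 to 0.87). The WT call was lost without any single primary WT library (adjusted p 0.0774 to 0.0926 by limma), and the null difference was called with a pseudocount of 0.1 (adjusted p = 0.0457), in a fit of all 4 groups (0.00881) and without adapted null E13.15 (0.0385). Loss of CIZ1 gave -0.10 in primary and -0.09 in adapted cells, and induction gave -0.20 (adjusted p = 0.921, 0.999 and 1 by limma). Sycp3 shares its locus with Chpt1, and without strand the reads of overlapping transcripts cannot be told apart. The other 15 genes stayed low, the highest single values being 2.69 for Stag3, 1.25 for Sycp1, 1.22 for Ddx4 and 1.11 FPKM for Brdt, and Mael, Tex101, Asz1 and Hormad1 were listed at 0 in every library. Brdt, which was not tested, was at 0.146 to 0.229 FPKM in primary and 0.514 to 0.752 in adapted WT cells. In null cells it was at 0.0129 to 0.554 before and 0.776 to 1.11 after adaptation, and S13 held 0.719. Its groups did not overlap in either genotype, as for the shares of units given above. Tdrd1 was at 0 in all adapted lines and at most 0.081 in the primary sets.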

How the data were processed

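RNA-seq was analysed from the deposited table of FPKM in 15 libraries. The authors trimmed reads with Cutadapt 1.8.3, aligned them to GRCm38 with HISAT2 2.0.5, assembled and merged transcripts, and ran Cuffnorm for the FPKM of each unit. A second deposited table holds fold changes and p-values of the authors' own comparisons and was not used. The FPKM files give no counts, so depth was taken relative to primary WT E14.4 from the steps of low values, and no counting intervals are given.

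Groups came from the labels. The embryo of 12 libraries was read from values 100.0% identical to the paper's per-line tables, which place 1 untreated transgenic library, E13.17, among its 3 primary CIZ1 null populations. Its source name reads S13, in conflict with its title. Untreated and treated transgenic libraries come from the same embryos, but the labels do not tie S14 and S15 to them, so they were not paired.

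Comparisons used limma 3.58.1 in R 4.3.3 (lmFit, eBayes with trend) on log2(FPKM + 1), with units of mean FPKM at least 1 over the libraries compared, Benjamini-Hochberg adjustment over all units and a threshold of 0.05. A fold change on this scale understates that of low genes. The method was tested on simulated data in which each unit had the same spread in all groups. That does not cover groups of unlike spread, such as those of Dnmt1 in null adaptation (SD 1.16 and 13.4 FPKM). The p-values set a difference against the spread between these populations. Primary and adapted libraries are paired by embryo. The deviations of a pair from its group means had correlations of 0.21, 0.146 and -0.01 (WT) and -0.019, 0.11 and 0.089 (null), and a block for the embryo was an alternative. Others were a pseudocount of 0.1, no filter, a minimum of 5, quantile normalization, summed units, all 4 groups in a single fit, other sets of primary null libraries and each library left out in turn.

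The members and gene lists were chosen with earlier results of these data known. All members are named. From each further list the genes called are named, or else the pair with the smallest p. Some genes that this rule would name are not reported here. Units were placed on a strand by their number, since 98.2% of 33121 genes with 1 unit lie in the number block of their annotated strand (GENCODE M21). Gene coordinates are from that annotation and promoters from RefSeq (GRCm38.p6). Other steps ran in Python 3.11.15 with pandas 2.3.3, NumPy 2.4.6, Matplotlib 3.10.9 and SciPy 1.17.1.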

Additional observations from a re-analysis of the deposited data

How the results depend on the processing

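The number of members called was 0 in each of the 6 comparisons and under each alternative other than leaving out a library. With 1 library left out it ranged from 0 to 1 in WT adaptation (Tet2, without adapted WT E14.4) and from 0 to 2 in null adaptation and in the interaction (Dnmt1 and Uhrf1, without adapted null E13.15). Directions changed as follows. In null adaptation Tet2 was -0.050 with only the 2 primary null libraries without the transgene. With all 4 untreated primary null libraries, loss of CIZ1 in primary cells gave -0.089 for Dnmt1 and -0.014 for Tet3. Tet3 in induction was -0.024 with units summed. With 1 library left out, log2 differences ranged in WT adaptation from -0.028 to 0.18 for Dnmt1 and from -0.65 to 0.047 for Dnmt3a. In null adaptation the range was -0.073 to 0.45 for Tet2, -0.21 to 0.24 for Tet3, -0.34 to 0.51 for Pcna and -1.72 to 0.089 for Cdk1. For loss of CIZ1 in primary cells it was -0.027 to 0.36 for Dnmt3a, -0.090 to 0.24 for Tet2 and -0.054 to 0.16 for Tet3, and in adapted cells -0.52 to 0.18 for Dnmt3a. In the interaction it was -0.69 to 0.010 for Dnmt3a. In induction it was -0.18 to 0.91 for Dnmt1, -0.62 to 0.80 for Uhrf1 and -0.10 to 0.25 for Tet3. The causes were not tested. Of the alternative log2 differences computed, 458 kept their direction and side of the threshold, 25 changed direction, 10 gained and 33 lost a call.

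All units called numbered 1902 in WT adaptation, 988 with no filter, 499 with the embryo as a block and 62 to 2972 with 1 library left out. In null adaptation they numbered 975, then 322 with no filter, 10 with the block, 2907 with all 4 groups in a single fit, 449 and 30 with the other sets of primary null libraries and 25 to 2999 with 1 library left out. The block changed no call of a member. Quantile normalization moved the median of all units in WT adaptation from -0.05 to 0.06. Tet1 and Dnmt3b were under 1 FPKM in every library and so below the filter. The part of depth in this was not tested.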

Other observations

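The ratio of Tet2 to Tet3, both per length, was 0.29 to 0.58 in the 6 primary libraries of the study's sets. It was 0.7, 1.27 and 1.65 in the adapted WT lines (E14.4, E13.1, E13.8). In S13, a primary null library outside those sets, the ratio was 0.932, above that of adapted WT E14.4. In adapted null cells it was 0.219 for E13.15, 0.434 for E13.17 and 1.15 for E14.2. The library S13, untreated and primary by its label, resembled the adapted null E14.2 and E13.17 lines in its low Dnmt1 (13.7 FPKM), Uhrf1 (7.97) and S phase list (348.7). It differed from them in Dnmt3a, at 6.35 FPKM against 2.29 and 4.37, and it held the highest Tet1 of all libraries, at 0.982 FPKM. S13 was also the shallowest library, at 0.483 of the depth of primary WT E14.4.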
